A study of Mus musculus with 2 samples.

Results

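The widest peaks of histone H3 lysine 4 monomethylation (H3K4me1) in the replicated list from mouse embryonic stem cells lay at Gse1, Kcnk5 and Slc2a1. In each replicate these stretches were divided by short breaks, and in the authors' lists on another genome build other genes held wider peaks. The 3 genes were chosen by peak width. Each has a single listed interval over 25 kb wide within 50 kb of its gene record in the authors' replicated peak list. They are 3 of 21887 protein-coding genes. Peak width is therefore given as a description and was not tested, and no measure taken from the same peaks is independent of the choice. The mark had been mapped by chromatin immunoprecipitation and sequencing in E14TG2a.4 embryonic stem cells, a cultured line of strain 129/Ola labelled as male, embryonic and 3.5 day in age. The 2 biological replicates of this line, for which no treatment is labelled, form the only group, and no control library or other condition was analysed here. Both replicates carry the same donor label, and the spread between them is that of their peak lists. An extra file of unstated role is named among the sources of the main replicate 2 list, but not for the other replicate. Its share in the spread was not tested.

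H3K4me1 is deposited by methyltransferases of the KMT2 family and is known from enhancers, from the flanks of promoters and from the bodies of some active genes. At CpG-rich promoters the nucleosomes next to the start site usually carry trimethylation instead, which leaves a dip in H3K4me1 there. Slc2a1 encodes GLUT1, the facilitative glucose transporter of most proliferating cells. Kcnk5 encodes TASK-2, a potassium channel of the two-pore domain family that opens at alkaline pH. Gse1 encodes a coiled-coil protein found with histone deacetylase and CoREST-type corepressor complexes.

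The promoters of the 3 genes are shown first, because each wide peak began downstream of one of them, and the start sites printed here lay in no peak in any list used. Each line below holds the 250 bases before a RefSeq start site (GRCm38.p6, the assembly behind mm10), written in the direction of the gene, with every CG dinucleotide in capitals. The Gse1 promoter is the one nearest to its wide peak, at chr8:120537159-120537408 on the plus strand. The Kcnk5 promoter lies at chr14:20181783-20182032 on the minus strand, and the Slc2a1 promoter at chr4:119108495-119108744 on the plus strand.
Gse1: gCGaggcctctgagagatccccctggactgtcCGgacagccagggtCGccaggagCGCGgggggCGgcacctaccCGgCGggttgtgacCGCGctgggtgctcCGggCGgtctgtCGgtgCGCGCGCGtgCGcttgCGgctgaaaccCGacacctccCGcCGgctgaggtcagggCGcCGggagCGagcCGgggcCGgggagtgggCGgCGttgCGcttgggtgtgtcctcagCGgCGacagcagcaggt
Kcnk5: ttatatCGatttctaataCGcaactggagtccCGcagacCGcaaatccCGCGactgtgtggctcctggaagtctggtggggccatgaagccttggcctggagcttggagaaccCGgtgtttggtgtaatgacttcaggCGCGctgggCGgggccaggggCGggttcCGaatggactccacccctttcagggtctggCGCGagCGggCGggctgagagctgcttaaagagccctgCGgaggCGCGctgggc
Slc2a1: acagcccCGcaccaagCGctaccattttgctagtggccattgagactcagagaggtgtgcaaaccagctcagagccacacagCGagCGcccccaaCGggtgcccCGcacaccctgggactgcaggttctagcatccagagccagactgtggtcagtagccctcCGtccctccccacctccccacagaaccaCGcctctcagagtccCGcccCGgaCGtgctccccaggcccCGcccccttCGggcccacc

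The 3 promoters held more CG dinucleotides than the median of 6 over 32851 RefSeq promoters. Those promoters are of all gene types, of which 21263 start sites are of protein-coding genes. The shares in this paragraph are therefore not against protein-coding genes only. The Gse1 stretch held 32, more than 95.4% of promoters, with a GC content of 74.8%. The Kcnk5 stretch held 19, more than 80.3% of promoters, and the Slc2a1 stretch held 13, more than 68.5%. The 2 other listed promoters of Gse1, with start sites at 120488866 and 120535857, held 13 and 15. At least 1 GC box, searched as GGGCGG on both strands, was found in all 5 promoters of the 3 genes and in 32.7% of all promoters. The match nearest to the start site began 20 bases before it at Slc2a1 and 47 bases before it at Kcnk5 and at the Gse1 promoter shown.

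In the replicated list, all 3 genes carried a single interval over 25 kb, against 0.0457% of protein-coding genes, or 10 of 21887, which is the property that chose them. The list held 4 intervals of that width in all. The Gse1 interval was the widest of 226060, with 33348 bp on chromosome 8 from 120543421 to 120576768. The Kcnk5 interval followed with 31818 bp on chromosome 14 from 20145311 to 20177128. That of Slc2a1 came next with 27832 bp on chromosome 4 from 119110657 to 119138488. For scale, the median interval of this list was 692 bp wide and only 268 intervals exceeded 10 kb. The fourth interval past the threshold, of 25858 bp, lay in the corepressor gene Ctbp2, which is not one of the 3 genes described, and the widest one under it, of 24768 bp, in the inhibitory SMAD gene Smad7. The remaining genes among the 10 are those whose extended records reach one of these 4 intervals.

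The width of these intervals differed between the replicates. Whether the extra file named for the replicate 2 list added to this was not tested. In replicate 1 the widest interval over the span measured 31883 bp at Gse1, 12471 bp at Kcnk5 and 25771 bp at Slc2a1. In replicate 2 it measured 14938 bp at Gse1, 23736 bp at Kcnk5 and 22293 bp at Slc2a1. So 2 of the 3 genes exceeded 25 kb in replicate 1, where 0.032% of protein-coding genes did, and 0 of the 3 did in replicate 2, where 0.0% did. Kcnk5 passed the threshold in neither replicate list and had its wide interval only in the pooled list and in the replicated list, whose intervals are all taken from the pooled one. Mean widths over the replicates were 23411 ± 11982 bp at Gse1, 18104 ± 7966 bp at Kcnk5 and 24032 ± 2459 bp at Slc2a1 (SD, n = 2). The genes could not be ranked by these means, since the spread at Gse1 and Kcnk5 was larger than any difference between the genes. The ranks of the widest interval by width were 1, 29 and 2 for Gse1, Kcnk5 and Slc2a1 in replicate 1, and 13, 1 and 3 in replicate 2.

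**Figure D1:**
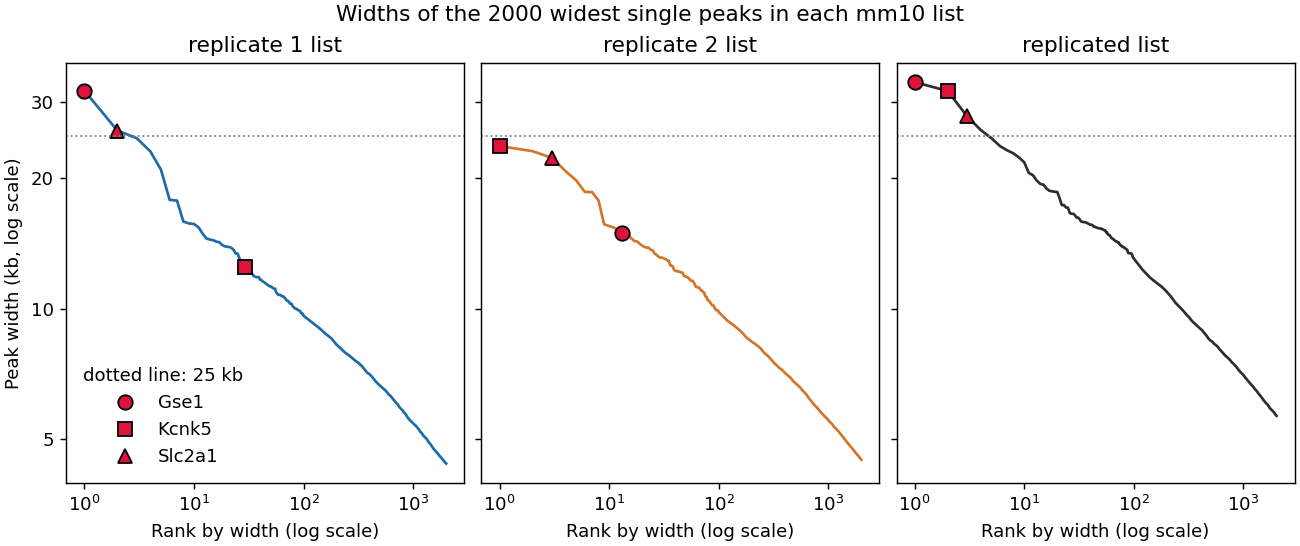
Width of the 2000 widest single peaks (kb, log scale) against their rank (log scale) in the replicate 1, replicate 2 and replicated lists on mm10, with the widest peak at Gse1, Kcnk5 and Slc2a1 marked. All 3 genes lie above the 25 kb line in the replicated list, Gse1 and Slc2a1 in replicate 1, and none in replicate 2.

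Short breaks divided the same stretch differently in the replicates. Across the wide Gse1 interval, replicate 1 listed 3 peaks and replicate 2 listed 6. The numbers were 4 and 3 at Kcnk5 and 3 and 3 at Slc2a1. The peaks were separated by 16 gaps in all, between 51 and 125 bp wide with a median of 86 bp. Such gaps were common in the lists: 30.1% of the gaps between neighbouring peaks in replicate 1 and 30.9% in replicate 2 were at most 200 bp. Peaks covered 99.4% of the Gse1 interval in replicate 1 and 98.4% in replicate 2. At Kcnk5 the shares were 98.8% in both replicates, and at Slc2a1 98.5% and 98.9%. Near-complete coverage of these spans follows from how they were chosen and is given as a description. In the gene records extended by 50 kb, 81.7% of the bases covered by either replicate were covered by both at Gse1, 88.2% at Kcnk5 and 85.2% at Slc2a1.

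The edges of the replicate peaks lay close to those of the replicated interval as well. That interval comes from the pool of the same 2 libraries, so this closeness is a description too. The first peak of each replicate began within 13 bp of the Gse1 interval's lower edge, and its last peak ended within 121 bp of the upper edge. The replicates deviated by at most 189 bp from either edge at Kcnk5, and by at most 230 bp at Slc2a1. With gaps of up to 200 bp closed, all 3 genes exceeded 25 kb in both replicates. The joined widths were 37609 bp at Gse1, 33365 bp at Kcnk5 and 29621 bp at Slc2a1 in replicate 1, and 38353 bp, 40184 bp and 27679 bp in replicate 2. Joining brought in other regions too, with 19 joined intervals over 25 kb in replicate 1 and 25 in replicate 2, and the 3 genes then ranked 4, 7 and 11 in replicate 1 and 5, 3 and 18 in replicate 2. With gaps of up to 1 kb closed, they ranked 81, 64 and 219 in replicate 1 and 101, 90 and 264 in replicate 2.

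**Figure D2:**
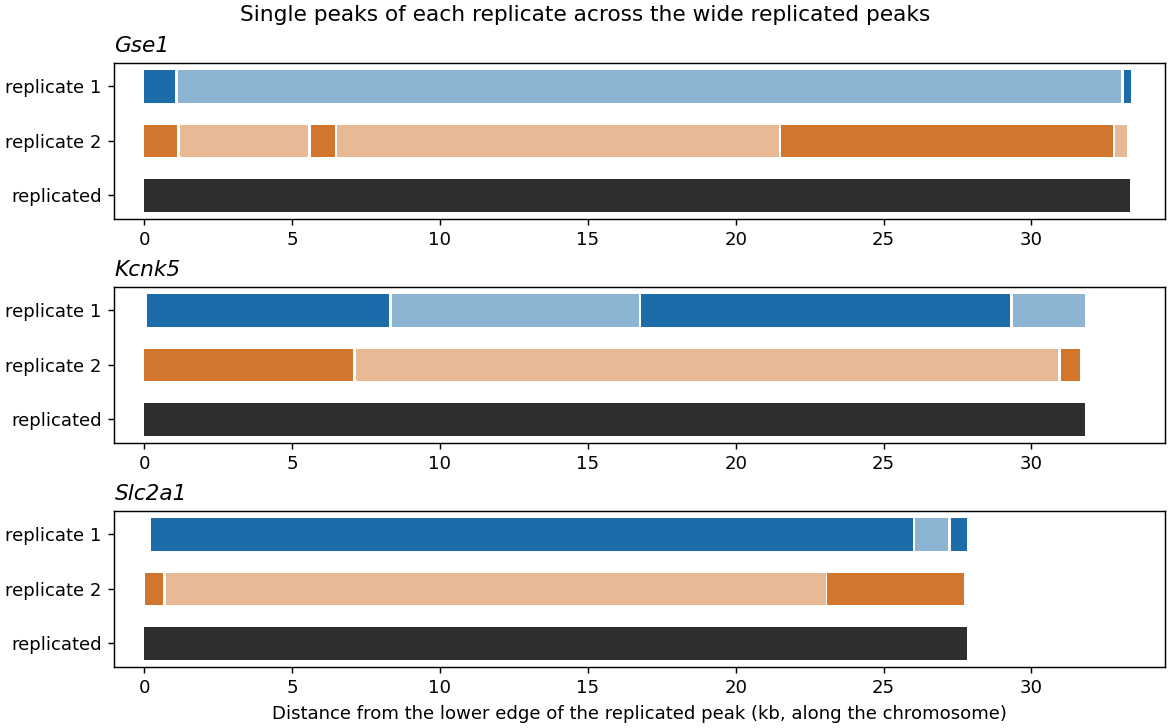
Single peaks of replicate 1 (blue) and replicate 2 (orange) across the wide peak of the replicated list (black) at each gene, as distance from its lower edge in kb, with neighbouring peaks in alternating shades. The breaks are 51 to 125 bp wide and are drawn to scale, and at least 98.4% of each wide peak is covered in each replicate.

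The wide intervals lay mostly in the transcribed part of the genes and, as single intervals, began a few kilobases downstream of a start site. At Slc2a1 the interval began 1912 bp downstream of the start site, ended 1158 bp past the end of the gene record and took in 93.3% of the record. At Kcnk5, which is transcribed from the minus strand, it began 4654 bp downstream of the start site, ended 5254 bp before the end of the record and took in 76.3% of it. There the marked stretch went on past the end of the gene: a gap of 154 bp separated the wide interval from the next, of 8417 bp. At Gse1 the record is long, 352883 bp, and the interval took in 9.45% of it, beginning 6012 bp downstream of the last of 3 listed start sites and ending 4615 bp before the end of the record. It thus lay downstream of all 3 listed start sites. Most edges of the wide intervals were themselves short breaks in the replicated list, so the marked stretches went on beyond them. Upstream, gaps of 95 bp at Gse1 and 56 bp at Kcnk5 led to peaks of 1883 bp and 1640 bp. Downstream, gaps of 100 bp at Gse1 and 124 bp at Slc2a1 led to peaks of 286 bp and 938 bp. Upstream of the Slc2a1 interval the gap was wider, 2104 bp.

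The authors' signal value, which the caller gives per peak, did not order the 3 genes in the same way in each list. In the replicated list it was 13.9 at Slc2a1, 13.0 at Kcnk5 and 10.7 at Gse1, against a median of 4.22 over all intervals. The value at Slc2a1 was above that of 95.2% of the 2848 replicated intervals at least 5 kb wide, that at Kcnk5 above 90.7% and that at Gse1 above 65.3%. In replicate 1 the values were 12.3 at Slc2a1, 10.7 at Kcnk5 and 11.1 at Gse1, above 78.0%, 50.3% and 57.5% of its intervals of at least 5 kb. In replicate 2 they were 11.6, 12.9 and 11.9, above 81.8%, 93.1% and 84.5%. In the long Gse1 window, 16 of the 164 intervals of the replicated list had a higher signal value than the wide one, up to 15.2. All 16 were narrower. In the shorter Kcnk5 and Slc2a1 windows 0 of 33 did in each. In replicate 1 the numbers were 14 of 236 at Gse1, 2 of 55 at Kcnk5 and 0 of 53 at Slc2a1. In replicate 2 they were 7 of 239, 0 of 46 and 1 of 43. The summit, the position the caller gives as the peak's highest point, lay 10046 bp downstream of the Slc2a1 start site in replicate 1 and 8759 bp in replicate 2. At Kcnk5 it lay 8328 bp and 9567 bp downstream in replicate 1 and replicate 2. At Gse1 the summit of the widest peak lay 34599 bp downstream of the last start site in replicate 1 and 19105 bp in replicate 2, where the widest peak spans only part of the wide interval, so these summits are of peaks of different extent.

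**Figure D3:**
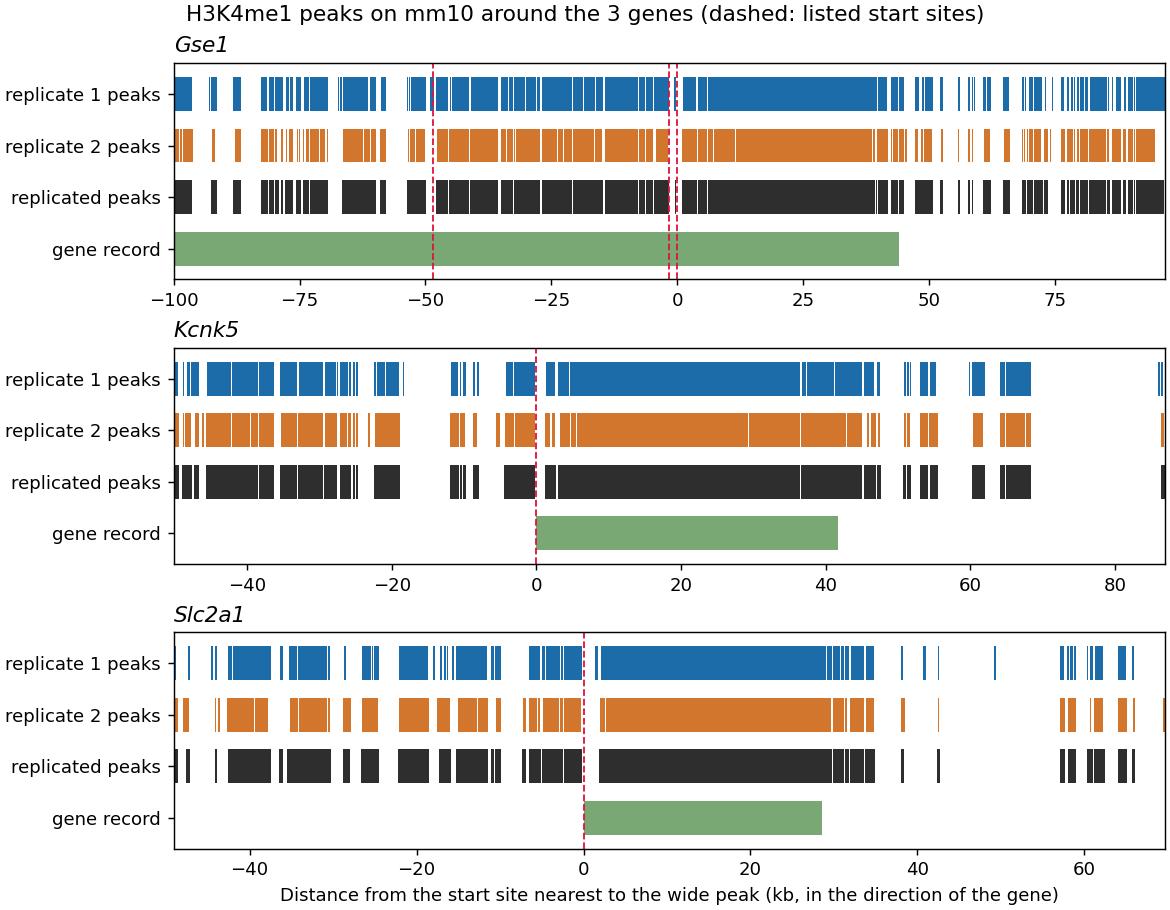
Peaks of replicate 1 (blue), replicate 2 (orange) and the replicated list (black) with the gene record (green), in kb from the start site nearest to the wide peak and in the direction of the gene, over each record with 50 kb on each side (Gse1 from 100 kb upstream). The wide peaks start downstream of the start sites (dashed), which lie in gaps of 1095 to 2115 bp in the replicated list.

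Of the 5 listed start sites of the 3 genes 0 lay inside a replicated peak, where 17.2% of the 21263 start sites of protein-coding genes did. With 5 sites this count does not set the genes apart, and 1 of the 5 lay inside a peak in the replicate 1 and pooled lists. All 5 had a replicated peak within 2 kb, as did 73.7% of all start sites. At Slc2a1 the gap around the start site ran from 193 bp upstream to 1912 bp downstream in the replicated list, and its width was 1574 bp in the first replicate and 2221 bp in the second. At Kcnk5 it ran from 149 bp upstream to 1165 bp downstream, with widths of 1504 bp in replicate 1 and 1400 bp in replicate 2. At the Gse1 promoter printed above it ran from 255 bp upstream to 841 bp downstream, with widths of 1336 bp and 2653 bp. In replicate 2 that gap also took in the start site at 120535857, with no peak between the neighbouring start sites. At the first listed start site of Gse1, at 120488866, the replicates differed: the base lay inside a peak in replicate 1 and in a gap of 2298 bp in replicate 2.

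Over the whole gene record, 93.3% ± 0.29 of Kcnk5 and 93.0% ± 0.44 of Slc2a1 lay in peaks (SD, n = 2), against a median of 12.2% over protein-coding genes. Gse1 had 63.8% ± 3.14, but its record is uneven. Before the first listed start site, over 260365 bp, 57.4% was covered in replicate 1 and 51.7% in replicate 2. Between the first and the last listed start site the shares were 87.5% and 85.6%, and from the last start site to the end of the record 93.0% and 93.2%. With 50 kb added on each side, coverage was 57.1% ± 2.64 at Gse1, 58.6% ± 0.02 at Kcnk5 and 50.7% ± 0.14 at Slc2a1, above 97.5%, 98.0% and 94.6% of genes. These shares include the wide intervals and so restate in part what chose the genes.

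The surroundings of the 3 intervals are given in 10 kb steps from their edges. Downstream of the Slc2a1 interval, coverage was 43.9% in replicate 1 and 46.6% in replicate 2 over the first 10 kb, and 6.23% and 1.83% over the next 10 kb. It was 12.5% and 16.1% between 20 and 30 kb, 27.9% and 26.3% between 30 and 40 kb, and 2.10% and 0% between 40 and 50 kb. Over the 50 kb after the end of the record the mean was 20.2% ± 0.04 (SD, n = 2), against a median of 10.2% over the 17492 genes with values for these flanks. That mean was above 64.9% of those genes. Most of the other 50 kb flanks of the records ranked higher. The mean was above 95.4% of those genes upstream of Slc2a1, 96.7% upstream of Kcnk5 and 91.6% downstream of Gse1. It was above 73.3% downstream of Kcnk5 and 62.2% upstream of Gse1. Upstream of Slc2a1 each 10 kb step was covered by 51.1% to 62.1% in replicate 1 and by 55.0% to 59.0% in replicate 2, in peaks of at most 4571 bp and 3569 bp. At Kcnk5 the first 10 kb beyond the interval in the direction of transcription were still covered by 91.1% and 88.3%, and the step from 40 to 50 kb by 3.57% and 1.23%. Upstream of Kcnk5, coverage dipped to 20.4% and 25.4% between 10 and 20 kb and was 88.9% and 86.2% between 40 and 50 kb. At Gse1 the nearest upstream step was covered by 69.4% in both replicates, and the steps from 10 to 50 kb upstream by 88.1% to 92.5% in replicate 1 and 88.7% to 90.4% in replicate 2. Downstream of the Gse1 interval coverage was 55.9% in replicate 1 and 62.5% in replicate 2 over the first 10 kb. It was 29.9% and 23.2% between 10 and 20 kb, 31.6% and 28.9% between 20 and 30 kb, and 43.4% and 56.2% between 30 and 40 kb. Between 40 and 50 kb it was 69.3% and 83.2%, so on that side coverage was lowest in the middle steps.

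**Figure D4:**
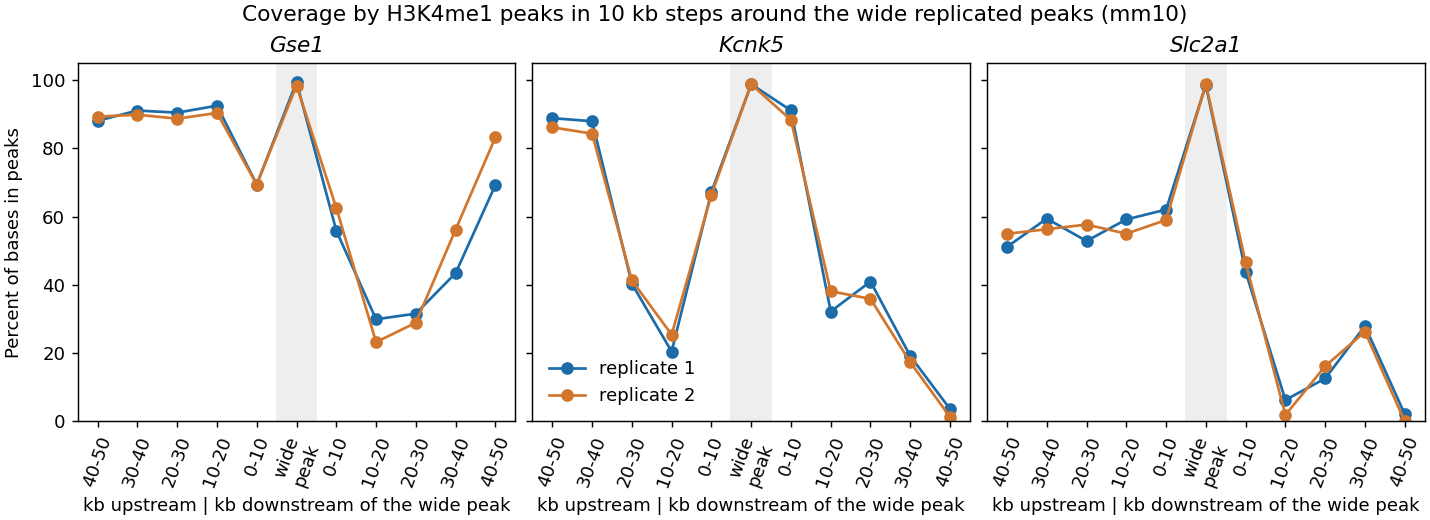
Percent of bases in peaks of replicate 1 (blue) and replicate 2 (orange) in 10 kb steps upstream and downstream of the wide replicated peak (shaded) at each gene on mm10. Coverage falls to 6.23% and 1.83% between 10 and 20 kb downstream of Slc2a1, while at Gse1 the steps from 10 to 50 kb upstream stay above 88% in both replicates.

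Other protein-coding genes with records in these windows lay beside the wide intervals and not under them. Gins2, which encodes a subunit of the GINS replication complex, overlaps the end of the Gse1 record but not the interval, and 44.1% of its record was covered in replicate 1 and 51.8% in replicate 2. Gm27021 had 60.6% and 63.6%, and 1190005I06Rik 66.0% and 73.7%. Downstream of Slc2a1, the zinc finger gene Zfp691 had 48.7% and 45.7%. Ermap, an erythroblast membrane gene further along, had 2.28% and 1.10%. The window of Kcnk5 held no other protein-coding gene. The lncRNA gene Gm12867, named after its values were seen, lies wholly within the Slc2a1 interval, on chromosome 4 from 119130288 to 119132168, so the mark over that stretch cannot be assigned to either gene. Other lncRNA genes start on the opposite strand near start sites described above. They are Gm52706, at 119108749 beside that of Slc2a1, 1700016A09Rik, at 120537726 near the last of Gse1, and Gm51556, at 120490453. The record of Gm51556, from 120487277 to 120490453, takes in the first listed start site of Gse1. The gaps and peaks at these start sites cannot be assigned to 1 gene either.

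The authors' peak lists on mm9, made from the same 2 libraries, gave wider intervals at all 3 genes but a different rank. These lists hold fewer and wider intervals, all whole multiples of 200 bp, with 299 over 25 kb in replicate 1 and 357 in replicate 2. The widest interval measured 42900 ± 2970 bp at Gse1, 46800 ± 283 bp at Kcnk5 and 33400 ± 566 bp at Slc2a1 (SD, n = 2). By width they ranked 56, 35 and 103 in replicate 1 and 49, 43 and 151 in replicate 2. The widest mm9 interval of replicate 1, in Pitpnc1, measured 135600 bp, and that of replicate 2, over Ctbp2 and Fgfr2, 127600 bp, both chosen for their width. The rank thus depended on the list. Without joining, the 3 genes ranked 1 to 3 in the replicated mm10 list, 1 to 29 in the mm10 replicate lists and 35 to 151 in the mm9 lists. The mm9 lists are in broadPeak form and the mm10 lists in narrowPeak form, so the ranks differ in more than the build.

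The 300 bases around each start site, 250 before and 50 from it on, matched the mm9 genome once and without a mismatch, so distances from the same start site could be set side by side. On mm9 the Slc2a1 interval began 1251 bp downstream of the start site in replicate 1 and 1851 bp in replicate 2. For Kcnk5 these distances were 804 bp and 1204 bp. The Gse1 interval began 892 bp downstream of the last start site in both replicates. It ended 2290 bp before the end of the mm9 gene record in replicate 1 and 1910 bp past it in replicate 2. The Kcnk5 interval ran 6079 bp past the end of the record in both replicates, and the Slc2a1 interval 6465 bp and 6265 bp past it. On mm9 the wide intervals therefore began nearer to the start site than in the mm10 replicated list. At Gse1 and Kcnk5, narrower mm10 peaks lay between the start site and the wide interval. The first replicated mm10 peak downstream began 841 bp from the last Gse1 start site and 1165 bp from that of Kcnk5. The 3 start sites next to them lay in no mm9 peak in either replicate. The other 2 listed start sites of Gse1 lay inside narrower mm9 peaks in replicate 1 and in none in replicate 2.

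**Figure D5:**
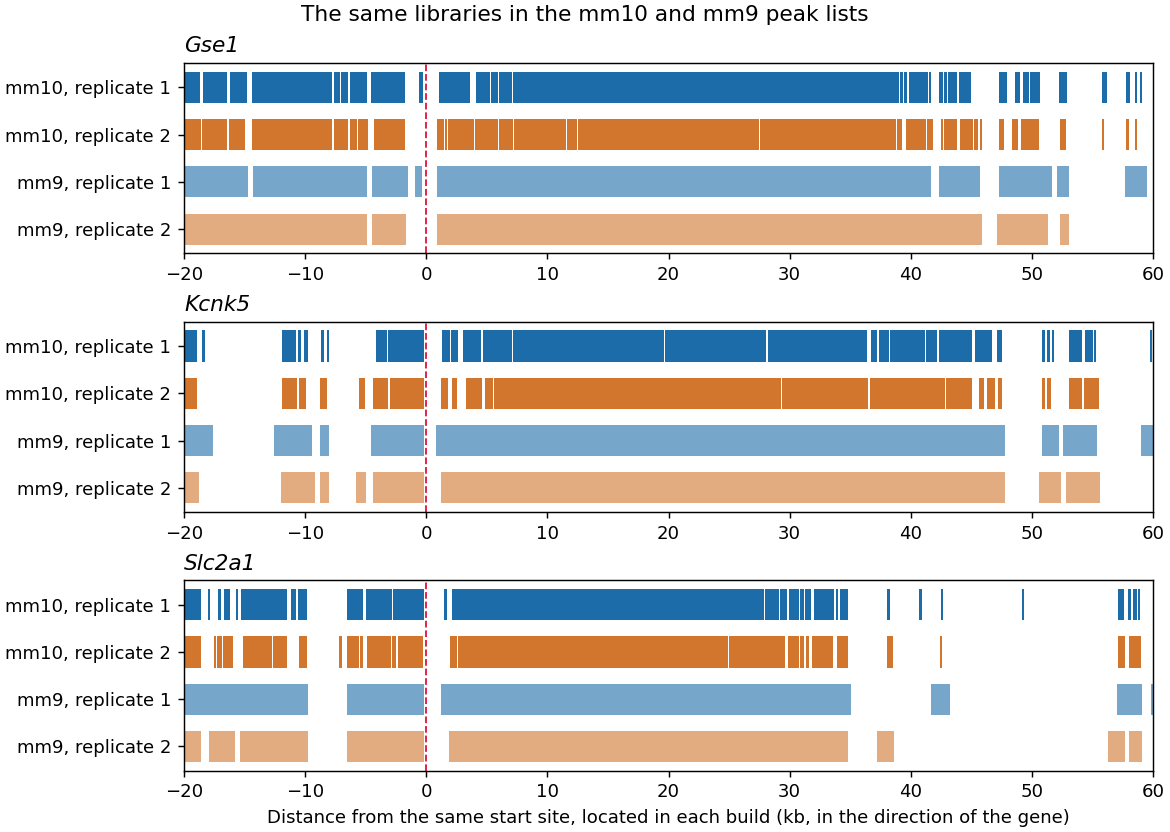
Peaks of replicate 1 (blue) and replicate 2 (orange) in the authors' mm10 lists (upper pair) and mm9 lists (lower pair, paler), in kb from the same start site as located in each build. The finely broken mm10 stretch and the single mm9 interval cover the same part of each gene and leave the start site nearest to it (dashed) uncovered.

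The widest mm9 interval contained 4 of the 5 Kcnk5 exons and 13 of the 16 Slc2a1 exons of protein-coding transcripts in both replicates, counting exons with different ends apart. At Gse1 it contained 14 of 22 in replicate 1 and 18 of 22 in replicate 2. GC content in the interval was higher than in the rest of the extended record at all 3 genes. In replicate 1 it was 56.6% against 53.3% at Gse1, 50.1% against 46.0% at Kcnk5 and 50.2% against 46.6% at Slc2a1. Compared with the 597 intervals over 10 kb on the 3 chromosomes in replicate 1, the GC content at Gse1 exceeded that of 99.2%, and those at Kcnk5 and Slc2a1 exceeded 65.7% and 66.0%. The CpG observed to expected ratio was 0.31 at Gse1 but only 0.21 at both other genes, where the median of those long intervals was 0.23. Only Gse1 of the 3 thus lay near the upper end of the long intervals in GC content.

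Relatives of the 3 genes are given by their counts and widths. Width was taken as the widest single interval within 50 kb of the record, averaged over the replicates, and exceeded 10 kb at 0.9% of protein-coding genes, with a median of 2188 bp. At that share a count of 0 in lists this short sets no list apart from other genes. Of the 11 other listed genes of the Slc2a family, taken by name and not by the sugar or other substance carried, 0 exceeded 10 kb. Their median was 2923 bp, with 4223 ± 49 bp at Slc2a9, 4061 ± 590 bp at Slc2a8 and 3690 ± 634 bp at Slc2a3 (SD, n = 2). That median is the value of both Slc2a5 and Slc2a7 on chromosome 4. Their widest intervals were equal, with 3538 bp in replicate 1 and 2307 bp in replicate 2. Slc2a3 encodes GLUT3, a high-affinity glucose transporter. Of the 13 other two-pore domain potassium channel genes 0 exceeded 10 kb either. Their median was 2425 bp, led by Kcnk12 with 5591 ± 4 bp, Kcnk6 with 4747 ± 1216 bp and Kcnk3 with 4603 ± 1640 bp. Kcnk16, whose extended record shares sequence with that of Kcnk5, had 3547 ± 130 bp.

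Among the 11 other genes of the GSE1 and CoREST corepressor list 0 exceeded 10 kb in the mean, and the median was 3592 bp. Hmg20b, which encodes a CoREST-associated HMG-box protein, came closest with 10677 bp in replicate 1 and 8147 bp in replicate 2. Rcor2, which encodes a CoREST protein, had 10743 bp and 6965 bp. In the mean they lay above 98.7% and 98.3% of genes, and both exceeded 10 kb in replicate 1 but not in replicate 2. In the replicated list their widest intervals measured 12863 bp at Hmg20b and 10669 bp at Rcor2. Kdm1a, the gene of the H3K4 demethylase LSD1, had 2707 bp and 6973 bp, a spread larger than its distance from the list median. The widest interval of a window depends on the window's length, so long records have more chances to hold a wide peak.

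The genes most like the 3, by the width of the widest replicated interval over the gene's own record, were Ctbp2, Smad7, Agpat4, Septin9 and Myrf. Their intervals measured 25858, 24768, 23737, 23191 and 22811 bp. Their widths in the replicates differed too. At Smad7 the widest replicate interval was 24760 bp in replicate 1 and 20772 bp in replicate 2. At Septin9, a cytoskeletal septin gene, it was 23069 bp and 11600 bp, and at Ctbp2 9987 bp and 23099 bp. At Agpat4, an acyltransferase gene, and at Myrf, which encodes a membrane-bound transcription factor, both replicates listed peaks of at most 10956 bp and 10251 bp under the wide interval.

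The lists held 313453 peaks in replicate 1 and 325226 in replicate 2 on mm10. Sequencing depth is unknown, as no list gives read counts. All 7 embryonic stem cell marker genes with a listed start site, out of 8 fixed, had a replicated peak within 2 kb. So did 1 of the 2 measured fibroblast markers, out of 6 fixed, and 73.7% of all start sites of protein-coding genes. Since peaks near promoters are common and no expression was measured, the cell type could not be checked further.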

How the data were processed

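H3K4me1 ChIP-seq peak lists of 2 biological replicates of E14TG2a.4 were used as deposited. The mm10 lists, in narrowPeak form, cover each replicate, their pool and the replicated peaks, and those on mm9 are in broadPeak form. The mm9 list of the whole series was not used. How reads were aligned and peaks called is not stated in the labels or read-me lists. The signal values, the −log10 q and the summit offsets are the authors' own per peak, deposited without a stated scaling, and were used within a list only. The read-me lists name 1 extra file, with its role not stated, among the sources of the replicate 2 and pooled mm10 lists but not of the replicate 1 list.

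Gene records and start sites on mm10 came from RefSeq tables of GRCm38.p6 (21887 protein-coding genes), and mm9 genes, exons and sequence from GENCODE vM1 and NCBIM37. No coordinate was converted between builds; promoters were located on mm9 by exact match. Overlap was counted from 1 bp. Coverage is the percent of bases in peaks. With 1 group, no test was made, and percentiles over genes are descriptions. The 3 genes and the gene lists were chosen with earlier results of these data known. Named genes were the 3 genes, protein-coding genes in their windows, the 5 other genes with the widest replicated interval, and the 3 widest of each family list. The interval functions were tested on simulated intervals. Alternatives were other lists, windows, widths, gap joining and each replicate left out. Software was matplotlib 3.10.9, pandas 2.3.3, numpy 2.4.6 and Python 3.11.15.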

Additional observations from a re-analysis of the deposited data

How the results depend on the processing

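No paired analysis was possible because the replicates form a single group. Widths ranged from 14938 to 31883 bp at Gse1, 12471 to 23736 bp at Kcnk5 and 22293 to 25771 bp at Slc2a1 when either replicate was left out, and coverage from 55.2% to 59.0%, 58.56% to 58.58% and 50.6% to 50.8%. The replicated and pooled lists gave 31818 bp at Kcnk5 and 27832 bp at Slc2a1. The mm9 lists gave 42900, 46800 and 33400 bp at Gse1, Kcnk5 and Slc2a1, joining across 200 bp gave 37981, 36775 and 28650 bp, and joining across 1 kb gave 48958, 46262 and 33140 bp; the last value at Gse1 is of a joined stretch upstream of the wide interval in both replicates. Width was the same with a −log10 q of at least 2 at each of the 3 genes.

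Coverage at Gse1, Kcnk5 and Slc2a1 was 61.6%, 61.5% and 54.1% in the replicated list, 63.1%, 63.0% and 56.0% in the pooled list, and 81.9%, 68.7% and 61.6% in the mm9 lists, where the Gse1 record is shorter. With 10 kb on each side it was 62.2%, 79.6% and 78.6%, and with 100 kb 53.9%, 41.1% and 48.7%. With a −log10 q of at least 2 it was 58.5% at Kcnk5 and 49.9% at Slc2a1.

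The number of genes within reach of an interval over 25 kb was 10 in the replicated list, and 0 and 7 without replicate 1 and without replicate 2. It was 38 at 20 kb, 5 at 30 kb, 4 without extending the record, 19 with 100 kb and 156 after joining across 200 bp. It was 3 where a single peak of each replicate had to share 50% reciprocally, which the Slc2a1 interval did and those of Gse1, Kcnk5 and Ctbp2 did not. The breaks that set the replicate widths within the wide intervals are at most 125 bp, and the read depth in them is unknown.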
